A study of Arabidopsis thaliana with 6 samples.

Results

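Transcripts of 6 gibberellin perception and signalling genes were followed in Arabidopsis rosettes left untreated, watered with an inhibitor of gibberellin synthesis or sprayed with gibberellin. They are the receptor genes GID1A (AT3G05120), GID1B (AT3G63010) and GID1C (AT5G27320), the F-box genes SLY1 (AT4G24210) and SNE (AT5G48170), and SPY (AT3G11540). A gene counted as a member when a probe set, a group of short array probes read as 1 value, named it and no other gene. Each of the 6 had 1 such probe set, out of 13286 genes with a probe set of their own. The RefSeq gene table gives SNE the symbol SLY2, with SNE as a synonym, so it was found by its locus code.

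Whole rosettes of accession Col-0 were measured on 6 Affymetrix-type arrays, in 3 groups of 2 biological replicates. The control group had no treatment. The PBZ group was watered at day 14 with 10 mL of paclobutrazol at 50 mg/L, which is 0.5 mg per pot, and the GA group was sprayed on alternate days with GA3 (50 µM, 1 mL a plant). Paclobutrazol inhibits gibberellin synthesis, and GA3 is a bioactive gibberellin. Control and PBZ plants are not described as sprayed. Plants of all 3 groups, the controls included, expressed a tagged ribosomal protein RPL18B from the constitutive 35S promoter. They were soil-grown in days of 16 h of light. The age at harvest was 27 days in the titles of the samples and 25 days in their source label. The labels name total RNA as the molecule, although their protocol also describes RNA pulled down with the tagged ribosomes.

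Gibberellin acts by removing its own repressors. The hormone is held by a GID1 receptor, the loaded receptor binds a DELLA protein, a nuclear repressor of growth genes, and an SCF ubiquitin ligase carrying the F-box protein SLY1 marks the DELLA for destruction. SNE is a close relative of SLY1 that can take its place when made in excess. SPY, a glycosyltransferase that adds fucose to DELLA proteins, holds the pathway back. Gibberellin is well known to feed back on its own pathway, in that transcripts for some of its synthesis enzymes and receptors are lower when the hormone is plentiful.

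The arrays had median intensities of 32.4 to 33.9. Across probe sets, the log2 values of replicate arrays correlated at 0.981 to 0.988, and those of arrays from different groups at 0.967 to 0.986. Leaf genes were read as a check for green tissue, which cannot tell a rosette from other green parts. RCA, the activase of Rubisco, and LHCB4.1, an antenna protein of photosystem II, had intensities between 3858.2 and 5244.8. These are 2 of 9 leaf genes listed, and their summed intensity was 8448.6 to 9985.9 in control, 9283.8 to 9305.2 in PBZ and 8944.6 to 9241.3 in GA arrays. Of 8 root genes listed, 1 was measured, the root hair expansin EXPA7, with 2.5 and 4.9 in control, 5.7 and 12.4 in PBZ, and 6.2 and 3.4 in GA arrays; it was dim throughout, and its part in the results was not tested. Of 8 inflorescence genes listed, 0 had a probe set of their own, so flowering tissue was not tested.

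The receptor genes GID1A and GID1B were brightest in PBZ rosettes, intermediate in control and dimmest in GA rosettes, and both fell between PBZ and GA. On the scale of log2(intensity + 10), GID1B was 3.45-fold and GID1A 2.05-fold lower in GA than in PBZ arrays. Both GA values of GID1B lay under 10, and its control values, 10.6 and 16.4, not far above. The size of its fold and its order of control above GA are therefore uncertain. As reported, GID1A and GID1B passed the test between GA and PBZ, but neither passed it against control in PBZ or in GA. SLY1 had the same order of groups without passing the test between any pair of them. GID1C, SNE and SPY had group means that differed by 0.38 or less on the log2 scale.

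**Figure D1:**
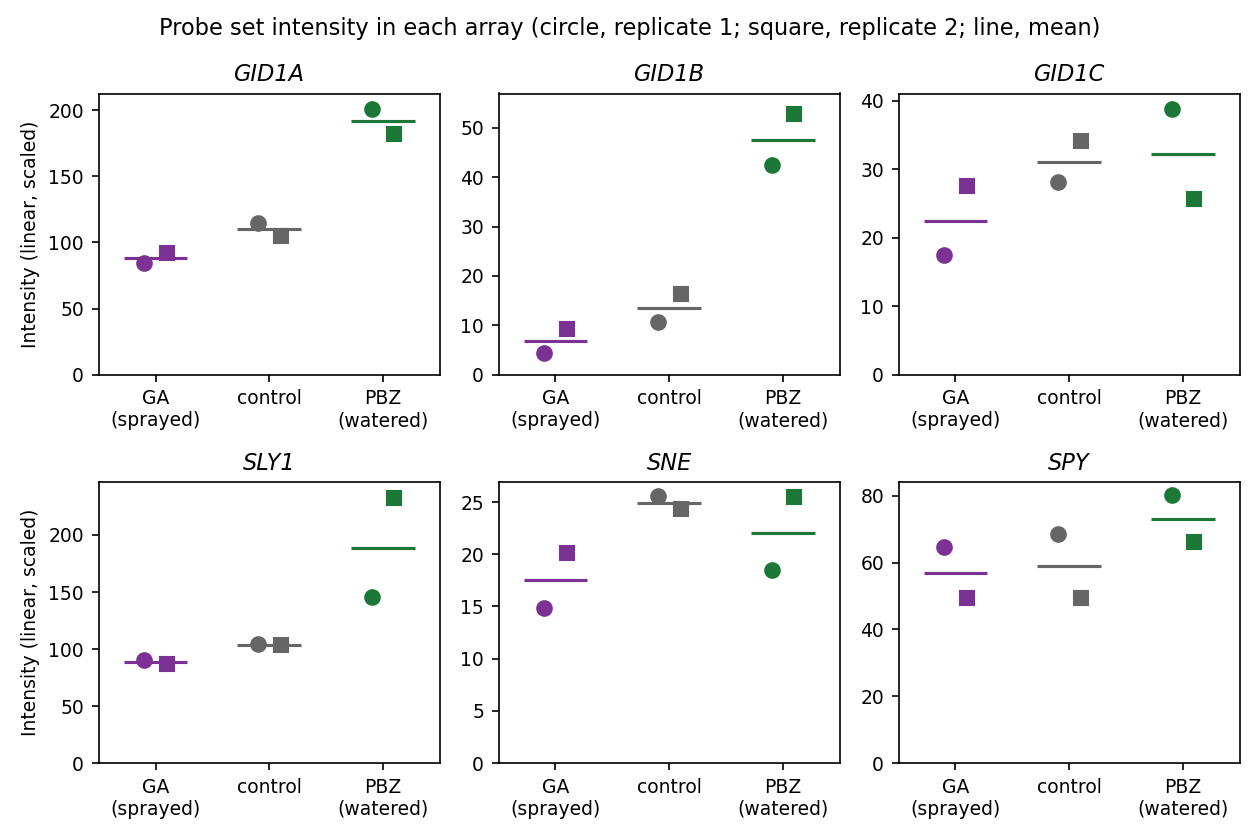
Linear probe set intensity (vertical axes, each from 0 and with its own range) of the 6 genes in each array, by group, with a line at each group mean. For GID1A, GID1B and SLY1 both PBZ arrays lie above both control arrays and both control arrays above both GA arrays.

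Among the receptors, GID1A had intensities of 200.7 and 182.4 in the PBZ arrays, 115 and 104.7 in the control arrays and 84.6 and 91.7 in the GA arrays. No array of one group overlapped with another group, and the gap between PBZ and control was wider than that between control and GA. Against control, GID1A had a log2 fold change of 0.75 in PBZ (standard error, SE, 0.13; 95% interval 0.44 to 1.06) and -0.29 in GA (SE 0.13; interval -0.60 to 0.02). These values, like all fold changes here, are differences of log2(intensity + 10), a scale that understates changes of dim probe sets. Neither passed the threshold of 0.05 on the p-value adjusted over all probe sets (limma adjusted p = 0.0892 and 0.629). Between PBZ and GA rosettes GID1A fell by 1.04 (SE 0.13; interval -1.35 to -0.73), which passed (limma adjusted p = 0.0182). The tissue was measured in bulk, so fewer cells with the transcript and less of it per cell cannot be told apart.

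GID1B had the widest range of group means on the log2 scale among the receptor genes (1.79, against 1.04 for GID1A and 0.38 for GID1C), although in linear intensity GID1A spanned more. It had 42.4 and 52.9 in the PBZ arrays, 10.6 and 16.4 in the control arrays, and 4.4 and 9.2 in the GA arrays. The groups again did not overlap, with PBZ far above the others. Control and GA lay close in linear units, although the GA mean was 0.50 of the control mean. The log2 fold change was 1.3 for PBZ against control (SE 0.21; interval 0.79 to 1.81; limma adjusted p = 0.0788) and -0.49 for GA against control (SE 0.21; interval -1.0 to 0.02; adjusted p = 0.612). In GA against PBZ it fell by 1.79 (SE 0.21; interval -2.29 to -1.28; limma adjusted p = 0.0156), and 48 of 22746 probe sets, or 0.211%, fell at least as far. The GA mean lay under the value of 10 that was added before taking logs, so the size of the change depends on that value. It was -2.70 with 1 added and -1.04 with 32 added.

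GID1C, the third receptor gene, did not separate the groups in the same way. Its intensities were 38.8 and 25.6 in PBZ, 28.1 and 34.1 in control, and 17.5 and 27.5 in GA arrays. The PBZ arrays spanned the control arrays, while both GA arrays lay below both control arrays. The log2 fold change was 0.02 for PBZ against control (interval -0.52 to 0.57; limma adjusted p = 0.977) and -0.35 for GA against control (interval -0.90 to 0.19; adjusted p = 0.76). The first of these turned negative under quantile normalization (-0.0177) and median centring (-0.0109). For GA against PBZ it was -0.38 (interval -0.92 to 0.17; adjusted p = 0.448). The last interval reaches down to nearly the size of the change of GID1A. The GID1C probe set is dim, and its change in GA against PBZ was -0.50 with 1 added before taking logs and -0.23 with 32 added.

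**Figure D2:**
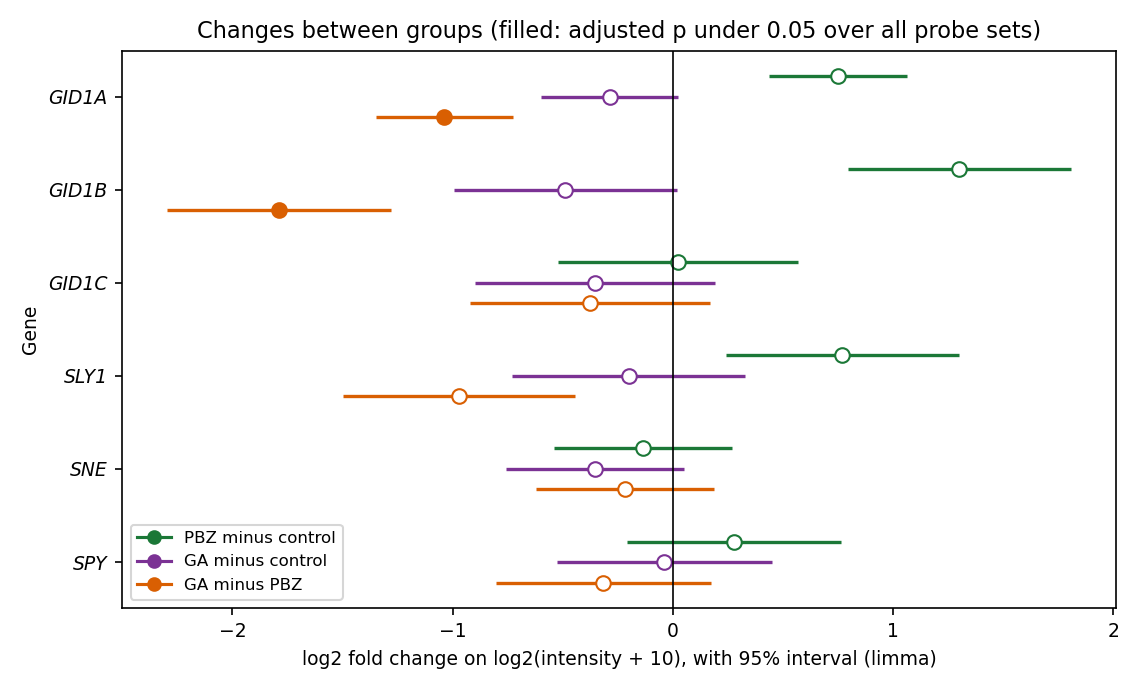
Log2 fold change (horizontal axis, on log2(intensity + 10)) of each gene in the 3 comparisons, with its 95% interval from limma. The filled points, GID1A and GID1B in GA minus PBZ at -1.04 and -1.79, are the 2 that passed over all probe sets.

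Whether the receptor genes changed unequally was read from differences between them within each array. The scaling of the array cancels only in part in these differences, because a value was added before taking logs. What is left of it is largest where a dim probe set, such as that of GID1B, is set against a brighter one. The differences still carry the brightness of each probe set, so only their change between groups is compared, and it also depends on the value added before taking logs. On the log2 scale, GID1B minus GID1C was 0.10 and 0.82 in the PBZ arrays, -0.89 and -0.74 in the control arrays, and -0.93 and -0.97 in the GA arrays. Both PBZ arrays stood above the other 4, and control and GA differed little. The PBZ mean exceeded the GA mean by 1.41, and the spread over the 3 groups gave p = 0.0667 in an exact permutation test of the F statistic, the smallest p that 3 groups of 2 arrays allow (0.20 adjusted over 3 pairs of receptors). The excess ran from 0.80 with 32 added to 2.20 with 1 added before taking logs. With 32 added, or with a floor of 10, the exact permutation p was 0.20 before adjustment.

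GID1A minus GID1C was 2.11 and 2.43 in PBZ, 1.71 and 1.38 in control and 1.78 and 1.44 in GA arrays. PBZ exceeded GA by 0.66, with exact permutation p = 0.133 over the 3 groups. The difference GID1B minus GID1A was -2.01 and -1.61 in PBZ, -2.60 and -2.12 in control, and -2.72 and -2.41 in GA arrays. Here PBZ exceeded GA by 0.75 (exact permutation p = 0.20 over the 3 groups), a value that ran from 0.14 with 32 added to 1.59 with 1 added before taking logs. With 2 arrays against 2, the two-sided exact permutation test of PBZ against GA cannot go below 0.333, which is the p of each of these pairs. None of these permutation tests could have passed at this number of arrays, so the values are given as a description.

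**Figure D3:**
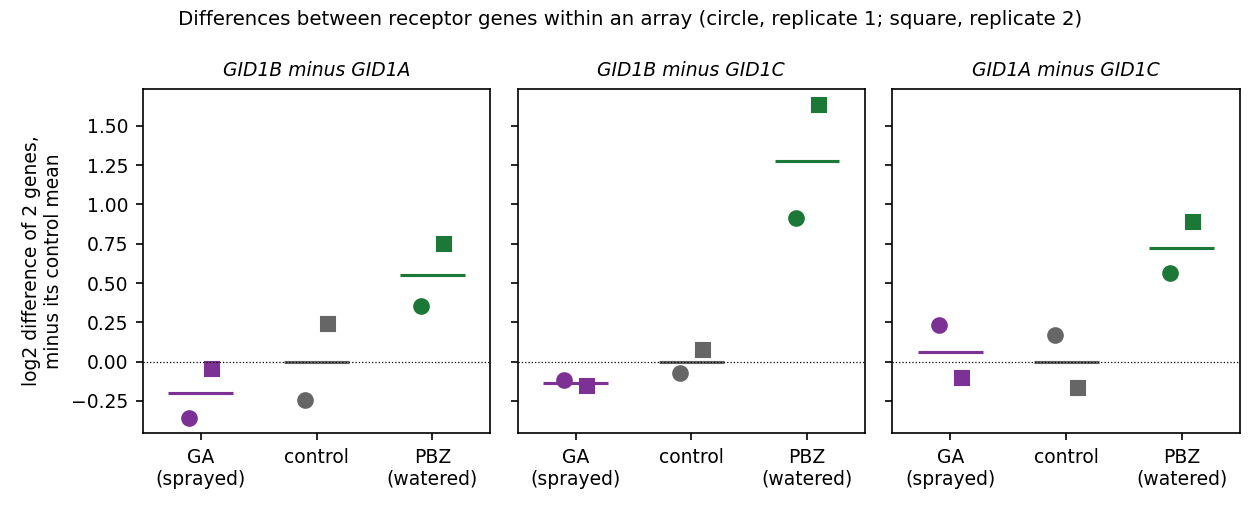
Difference between the log2(intensity + 10) values of a pair of receptor genes within each array, after subtracting the control mean of that difference (vertical axis, log2 units), by group, with lines at group means. The PBZ arrays are the highest in each panel; for GID1B minus GID1C the PBZ mean lies 1.28 above the control mean and the GA mean 0.14 below it (-0.14).

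Of the F-box genes, SLY1 had 145.3 and 232 in the PBZ arrays, 104.1 and 103.4 in the control arrays, and 90.8 and 87.1 in the GA arrays. The order of the groups was that of GID1A and GID1B, with no overlap, but the PBZ arrays lay far apart. The log2 fold change was 0.77 for PBZ against control (SE 0.22; interval 0.24 to 1.3; limma adjusted p = 0.216) and -0.20 for GA against control (SE 0.22; adjusted p = 0.89). For GA against PBZ it was -0.97 (SE 0.22; interval -1.5 to -0.44; adjusted p = 0.0802), which missed the threshold. It ran from -0.65 without PBZ replicate 2 to -1.29 without PBZ replicate 1, so the higher PBZ array sets much of its size.

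SNE did not share that pattern. Its probe set had 18.5 and 25.5 in PBZ, 25.6 and 24.3 in control, and 14.9 and 20.1 in GA arrays. Control was the brightest group by its mean and both GA arrays lay below it, while the PBZ arrays overlapped with GA. The log2 fold changes were -0.14 for PBZ against control (interval -0.54 to 0.27), -0.35 for GA against control (interval -0.76 to 0.05) and -0.22 for GA against PBZ (interval -0.62 to 0.19), and none passed (limma adjusted p = 0.783, 0.649 and 0.564). The value against control in PBZ was 0.0228 without PBZ replicate 1.

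SPY, the repressor of the pathway, had 80.1 and 66.1 in PBZ, 68.6 and 49.4 in control, and 64.5 and 49.3 in GA arrays. Replicates differed by about as much as groups did, and replicate 1 was the brighter array in every group. The log2 fold change was 0.28 for PBZ against control (interval -0.21 to 0.77), -0.04 for GA against control (interval -0.53 to 0.45) and -0.32 for GA against PBZ (interval -0.80 to 0.17), and none passed (limma adjusted p = 0.609, 0.991 and 0.478). GA against PBZ was the one comparison in which its groups did not overlap.

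Counted over the 6 genes, GA against PBZ had 2 that passed, both lower in GA, where 2.97% of all 22746 probe sets passed and 1.01% did so as lower. All 6 log2 fold changes were negative, as were those of 57.8% of probe sets. GID1A, GID1B and SLY1, 3 of the 6, were lower with an unadjusted limma p under 0.05, beside 9.76% of probe sets. Both GA arrays lay below both PBZ arrays in 4 of the 6, these 3 and SPY, beside 28.3% of probe sets. Their median log2 fold change was -0.67, beside -0.05 over all probe sets. Both calls ended without any 1 PBZ or GA array, which left 1 array in a group. The log2 fold change then ran from -1.103 to -0.972 for GID1A and from -1.995 to -1.58 for GID1B. Leaving out either control array gave the same GA against PBZ fit as the PBZ and GA arrays alone. In that fit the GID1A call ended (limma adjusted p = 0.0502) and that of GID1B held (0.0409). With 1 added before taking logs both calls ended (0.0659 for GID1A, 0.0749 for GID1B), as did that of GID1B with a floor of 10 (0.0753).

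In PBZ against control 0 of the 6 passed, where 0.514% of probe sets did. GID1A, GID1B and SLY1, again 3 of the 6, were higher with an unadjusted p under 0.05 from limma, beside 7.41% of probe sets. These 3 were also the members whose PBZ arrays all lay above control, which 23.2% of probe sets did. The log2 fold change was positive in 5 of the 6, with SNE the exception, and in 54.2% of probe sets; that of GID1C turned negative under 2 scalings, as given above. The median over the 6 genes was 0.51, against 0.03 over all probe sets. GID1B ranked high among all changes, with 77 probe sets, or 0.339%, rising at least as far.

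In GA against control 0 of the 6 passed, and 0% of probe sets did, with limma. At an unadjusted p under 0.05 there were also 0 of the 6, beside 8.49% of probe sets. All 6 log2 fold changes were negative, as in 54.8% of probe sets, and 5 of the 6, all but SPY, had both GA arrays below both control arrays, as 22.2% of probe sets had. The median of the 6 genes was -0.32, against -0.02 over all probe sets. The comparisons of PBZ and of GA with control share the control arrays, so their values are not independent of each other.

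Over the 3 groups together, the moderated F test passed for GID1A and GID1B (limma adjusted p = 0.0391 and 0.0333), and 1.68% of probe sets passed. Both calls ended without any 1 of the 6 arrays. The F test did not pass for SLY1 (adjusted p = 0.149), SNE (0.524), GID1C (0.591) or SPY (0.634). The full order of PBZ above control above GA, with no overlap between neighbouring groups, was seen in 3 of the 6 genes and in 4.21% of probe sets. This rule was chosen after the values were seen. For GID1B the part of the order between control and GA rests on dim values, 10.6 and 16.4 against 4.4 and 9.2. For GID1A, GID1B and SLY1 the neighbours in that order, PBZ with control and control with GA, did not pass the test over all probe sets as reported. PBZ against control did pass under some alternatives, for GID1A and GID1B with 32 added before taking logs (limma adjusted p = 0.0395 and 0.0472), and for GID1A without the 40% dimmest probe sets (0.0170) and with a variance prior that follows intensity (0.0297).

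**Figure D4:**
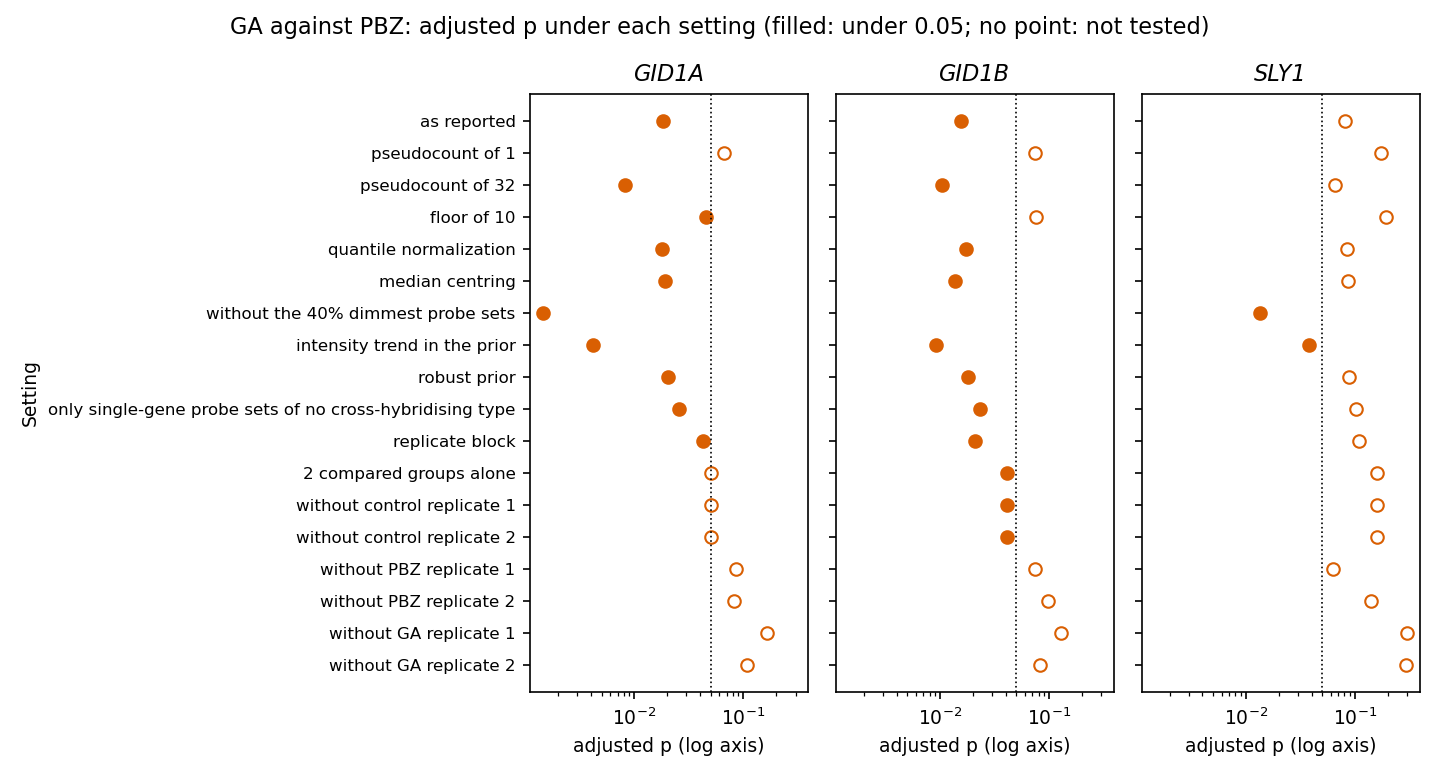
Adjusted p of GA against PBZ (horizontal log axis, shared by the panels) for GID1A, GID1B and SLY1 under the reported setting and each alternative, with the threshold of 0.05 dotted. GID1A and GID1B pass as reported (0.0182 and 0.0156) and lie beyond the threshold without any 1 PBZ or GA array; SLY1 passes in 2 settings.

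Of the rest of the pathway, 4 of 52 listed genes could be read from a probe set naming them alone. Those for gibberellin synthesis, for its inactivation, for DELLA proteins, for their partners and for the SCF core had 0, so these steps were not tested. SEC (AT3G04240), the relative of SPY that adds N-acetylglucosamine to DELLA proteins, had 102.6 and 85.4 in PBZ, 103.9 and 76.2 in control, and 91.3 and 81.7 in GA arrays. Its groups overlapped throughout, with log2 fold changes of 0.06, -0.04 and -0.10 in PBZ against control, GA against control and GA against PBZ (limma adjusted p = 0.92, 0.989 and 0.822).

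XERICO (AT2G04240), a RING finger gene known as a target of DELLA proteins and linked to abscisic acid, had 516.8 and 670.2 in PBZ, 244.1 and 217.5 in control, and 100.7 and 148.8 in GA arrays. Its order of groups was that of GID1B, and it was the 1 of the 4 genes to pass, beside 2.97% of all probe sets, falling by 2.17 in GA against PBZ (SE 0.22; limma adjusted p = 0.0119). Of 5 DELLA targets listed, 3 were measured, XERICO, AT5G50915 and AT2G31730, and XERICO alone had this order. AT5G50915, which the gene table gives no symbol, had 105.2 and 97.3 in PBZ, 55.2 and 62.5 in control, and 100.6 and 86.1 in GA arrays. Both treated groups lay above control without passing (limma adjusted p = 0.117 for PBZ and 0.292 for GA). In GA against PBZ its log2 fold change was -0.11 (limma adjusted p = 0.748). The remaining gene, AT2G31730, had intensities from 25.9 to 46.1 and did not pass in any comparison. In PBZ against control and in GA against control 0 of the 4 genes passed, where 0.514% and 0% of all probe sets did, so a count of 0 says little of these 4.

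Genes most like a member were sought among 959 or 960 probe sets of other genes with a symbol and a group mean of at least 30. Likeness was the root-mean-square difference of the 6 log2 values, each gene centred on its control mean. For GID1B the nearest were JAL33 (AT3G16450), a jacalin-related lectin, at 0.19, XERICO at 0.26 and CHIL (AT5G05270), a chalcone isomerase-like protein, at 0.28. JAL33 had 96.8 and 103.4 in PBZ, 26.5 and 45.7 in control and 16.2 and 18.2 in GA arrays. CHIL had 107.6 and 88 in PBZ, 36.1 and 31.7 in control, and 22.6 and 36.6 in GA arrays, so its control and GA arrays overlapped where those of GID1B did not.

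For GID1A the nearest were UGT76C2 (AT5G05860), a glucosyltransferase of cytokinins, at 0.12, SCPL35 (AT5G08260, written scpl35 in the gene table), a serine carboxypeptidase-like protein, at 0.12, and BETA-VPE (AT1G62710), a vacuolar processing enzyme, at 0.12. UGT76C2 had 81 and 61.7 in PBZ, 40.1 and 38.6 in control, and 25.2 and 27.2 in GA arrays, and BETA-VPE had 74.7 and 67.4, 48.2 and 42.5, and 34.3 and 40.4 in the same order. Each of these 3 genes had PBZ above control above GA with no overlap, which their choice by likeness to GID1A favours.

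For SLY1 the nearest were AMY1 (AT4G25000), an alpha-amylase, at 0.14, CLE41 (AT3G24770), a gene for a small signalling peptide of the vasculature, at 0.15, and PDC2 (AT5G54960), a pyruvate decarboxylase, at 0.15. In all 3, as in SLY1, PBZ replicate 2 was the brightest array, which their choice by likeness to SLY1 also favours. AMY1 had 35.3 and 61.6 in the PBZ arrays and CLE41 471.1 and 634.4. SLY1 itself was closer to GID1A (0.24) than to GID1B (0.40), and farthest among the 6 genes from GID1C (0.56). For GID1C, SNE and SPY no like genes are named, because their group means differed by less than 0.5 and any flat gene resembles them.

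**Figure D5:**
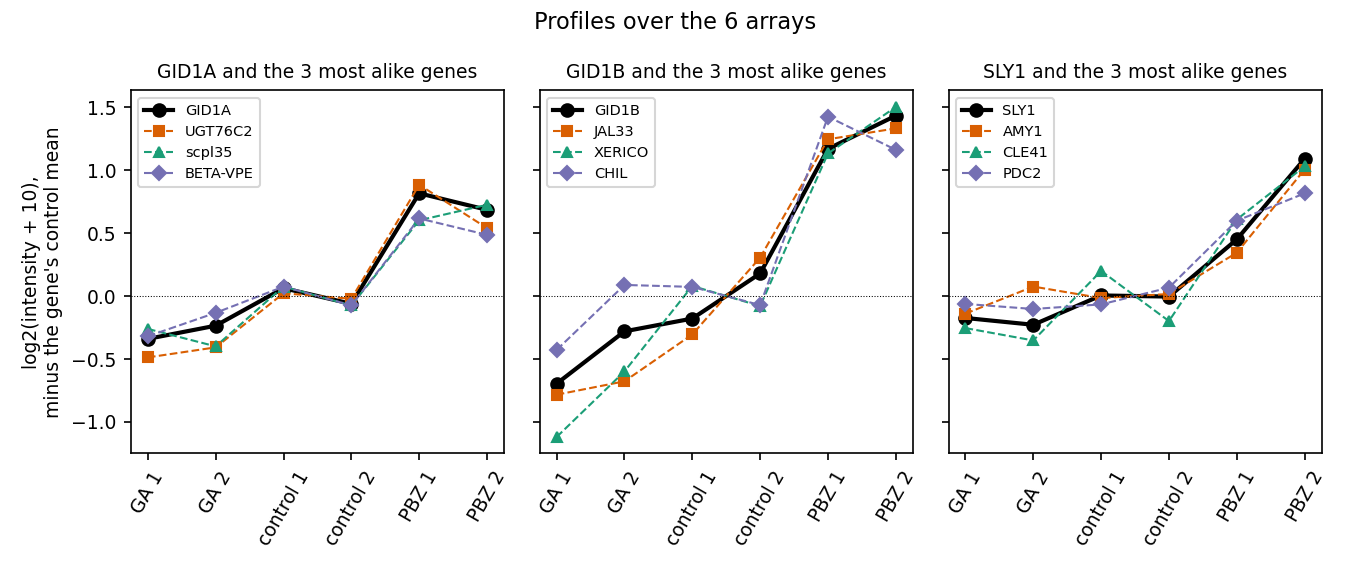
Log2(intensity + 10) in each of the 6 arrays, minus the gene's own control mean (vertical axis, log2 units), for GID1A, GID1B and SLY1 (black) and the 3 genes nearest to each. The lines join arrays only to guide the eye; for SLY1 and its nearest genes the highest point is PBZ replicate 2.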

How the data were processed

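The deposited table holds linear intensities, 1 per probe set and array. With 2% of values trimmed from either end, all 6 arrays had a mean of 100.01, so the authors had scaled them. The submitters' processing notes name RMA and affy, but RMA gives log2 values, and the sources used here do not say how these intensities were made. Of 22810 probe sets, 64 controls were left out. From each deposited intensity log2(intensity + 10) was computed, and limma 3.58.1 in R 4.3.3 fitted 1 mean per group to all 6 arrays (3 residual and 3.07 prior degrees of freedom), with Benjamini-Hochberg adjustment over 22746 probe sets. The limma p-values rest on the spread between replicates called biological in the labels, with no more said of their origin. That spread is pooled over the 3 groups and drawn toward the spread of all probe sets. Groups with unequal spread, such as those of SLY1, therefore share 1 SE. Having 2 arrays a group limits the precision, and the median SE of a log2 fold change was 0.16. Genes were named through the platform annotation and RefSeq; 13513 probe sets name 1 gene, 503 several and 8730 none, and listed genes not measured may be among those. The 6 genes, the lists, the naming rule (every member, and the 3 nearest genes of each member whose group means differ by at least 0.5) and the tests were chosen with earlier results of these data known. The steps were tested on simulated data with normal noise of the fitted spread on the same log2 scale. Of probe sets given a change of 1 in PBZ, 73% were recovered in PBZ against control and 76% in GA against PBZ. For a change of 2 these were 99% and 100%. Such data cannot show faults from dim values, from the scaling or from the model of the spread. Alternatives were other pseudocounts (1 and 32), a floor of 10, median centring, quantile normalization, leaving out the 40% dimmest probe sets, other variance priors, fewer probe sets, the replicate number as a block, fits of 2 groups and leaving out each array.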

Additional observations from a re-analysis of the deposited data

How the results depend on the processing

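For the number of the 6 genes past the threshold, GA against control stayed at 0 under all 17 alternatives. PBZ against control, 0 as reported, had 2 (GID1A and GID1B) with a pseudocount of 32, 1 (GID1A) without the 40% dimmest probe sets, where GID1B was not tested, and 1 (GID1A) with an intensity trend. GA against PBZ, 2 as reported, had 0 with a pseudocount of 1, 1 with a floor of 10, 1 in the fit of the 2 groups alone, 3 (with SLY1, adjusted p = 0.0379) with an intensity trend, and 0 to 1 when each array was left out. The F test, 2 as reported, had 0 with a pseudocount of 1, a floor of 10 or single-gene probe sets alone, 1 with the replicate block, and 0 when any array was left out. A count of 2 need not be the same genes: without dim probe sets it was GID1A and SLY1. Of 303 recomputed fold changes of single genes 276 kept their sign and side of the threshold, 14 lost the call, 6 gained it and 7 turned sign, all in changes near 0. Those were GID1C in PBZ against control (-0.0177 with quantile normalization, -0.0109 with median centring, and -0.20 to 0.25 when each array was left out), SNE in PBZ against control (-0.294 to 0.0228) and SPY in GA against control (-0.24 to 0.16). Over the whole table the calls ran from 0 to 548 in PBZ against control (117 as reported), 0 to 193 in GA against control (0) and 0 to 1349 in GA against PBZ (675), and from 0 to 1133 in the F test (382). The cause of these ranges was not tested. With the replicate block, GID1A and GID1B in GA against PBZ kept their calls (adjusted p = 0.0423 and 0.0207), while calls over the table went to 47, 1 and 391. The numbers alone link the replicates: correlations between the replicate 1 deviations of 2 groups were 0.0147, 0.0313 and -0.000766. GID1B, SNE and GID1C are dim, with 39.5%, 42.2% and 46.9% of probe sets dimmer by mean log2 value. Per array, 26.8% to 29.4% of values lay under 10.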

Other observations

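A comparison added after the values were seen set the step from control to PBZ against the step from GA to control for each gene. For GID1B the first step was larger by 0.81 on the log2 scale (interval -0.07 to 1.69; limma adjusted p = 0.605), for SLY1 by 0.57 (adjusted p = 0.75) and for GID1A by 0.46 (interval -0.08 to 1.00; adjusted p = 0.641). SPY had 0.24 in the same direction (adjusted p = 0.903). SNE and GID1C had the opposite sign, at -0.49 and -0.33 (adjusted p = 0.717 and 0.873). No gene of the 6 passed in this comparison, and 0% of all probe sets did, with 8.83% at an unadjusted limma p under 0.05 and 0 of the 6 genes among them.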
